A study of Homo sapiens with 8 samples.

Results

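Human chromosome 13 held 7513 of the 161291 open chromatin regions found in U-937 cells, and its regions differed from those of the other 21 autosomes in how many appeared or disappeared between treatments. The members are all peaks that the 4 deposited peak lists place on chromosome 13, merged wherever peaks of a list or of different lists overlapped by at least 1 bp. ATAC-seq detects accessible DNA by letting a transposase cut it and attach sequencing adapters. U-937 is an established human cell line of monocytic character, grown as a single line without a genetic change between groups. The 4 groups were DMSO (the vehicle), ATRA (all-trans retinoic acid, which activates the retinoic acid receptors and drives myeloid differentiation), Corin (a dual inhibitor of the demethylase and deacetylase of the CoREST co-repressor) and the combination of both, each compound at 0.1 µM for 24 h. Each group had 2 samples, 8 in all, and 1 peak list, so the variation between cultures is unknown and treatments are compared without a test. The chromosome was selected on the gained and lost calls of these same lists, so those counts are a description.

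Chromosome 13 is acrocentric and poor in genes, with long stretches that hold few genes. Its known blood genes include FLT3, a receptor kinase of myeloid progenitors, RB1, the retinoblastoma tumour suppressor, the non-coding gene DLEU2 and the microRNA host gene MIR17HG. Regions that open or close within a day of treatment are commonly enhancers bound by transcription factors. Examples are PU.1, the master regulator of myeloid genes, and AP-1, a family that responds to stress and growth signals. At the promoters of fixed markers, 8 of 10 myeloid genes had a region in all 4 lists, including SPI1, CEBPA, CD33 and ITGAM, while MPO had none in any list. Of the 5 B cell markers 4 had one in all 4 lists, and of 5 T cell and 5 erythroid markers 1 each did.

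The sequences below are 200 bp windows of the plus strand around the strongest summits of 2 regions, 1 lost and 1 gained with ATRA, read from the hg38 reference. Capitals mark a match to the AP-1 motif TGANTCA. The first, chr13:44243283-44243482, lies in an exon of the non-coding gene LINC02938 and carries the region lost with ATRA that was strongest in DMSO. The second, chr13:48682546-48682745, lies in an intron of CYSLTR2, a leukotriene receptor gene, and was among the strongest regions gained with ATRA.
LINC02938 exon, lost with ATRA: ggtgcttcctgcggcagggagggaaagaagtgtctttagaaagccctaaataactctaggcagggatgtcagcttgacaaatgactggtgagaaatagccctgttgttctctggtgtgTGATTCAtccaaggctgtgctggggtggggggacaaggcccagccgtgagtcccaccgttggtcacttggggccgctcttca
CYSLTR2 intron, gained with ATRA: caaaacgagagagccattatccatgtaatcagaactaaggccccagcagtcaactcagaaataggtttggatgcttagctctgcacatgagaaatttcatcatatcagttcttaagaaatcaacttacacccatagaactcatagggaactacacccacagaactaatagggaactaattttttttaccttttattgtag

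The question of the series is which regions open or close with each compound. On chromosome 13 the largest movement was a loss with ATRA. A region counted as lost when it was called in DMSO and not with the treatment, and as gained in the reverse case, and shares are given over the regions called in either list of a pair. The chromosome 13 regions numbered 4835 in DMSO, 3413 with ATRA, 4269 with Corin and 3940 with the combination. With ATRA 2260 of 5673 regions were lost, or 39.8% (95% Wilson interval 38.6 to 41.1), against 20.7% of the regions of all chromosomes. The same share on the other 21 autosomes ran from 12.8% on chromosome 17 to 28.7% on chromosome 21, so chromosome 13 ranked first. Gain with ATRA went the other way. It covered 838 regions, 14.8% (13.9 to 15.7) against 18.5% over all regions, the second lowest share of the 22 autosomes. All Wilson intervals here cover counting error over regions only, not variation between cultures.

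With Corin chromosome 13 led in both directions. The gained regions numbered 1260 of 6095, 20.7% (19.7 to 21.7), against 13.4% over all regions and 8.62% to 17.2% on the other autosomes. The lost regions numbered 1826, 30.0% (28.8 to 31.1), against 24.6% over all regions. The combination gained 1097 of 5932, 18.5% (17.5 to 19.5), the highest share of the 22 autosomes, against 12% over all regions. It lost 1992, 33.6% (32.4 to 34.8), against 27.9%, and only chromosome 18 lost a higher share. The lists ended at different limits. The lowest authors' −log10 p on chromosome 13 was 2.79 in DMSO, 2.02 with ATRA and 2.00 with Corin and with the combination. The weakest peaks of the treatment lists thus lay below any in DMSO. The part of this in the gains was not tested. With only peaks of a −log10 q of at least 5, the gains with Corin and with the combination were 13.3% and 14.7%, still the highest of the autosomes. With all lists cut to the same number of regions, the losses with Corin and with the combination were 16.08% and 15.95% and ranked 15 of 22, while the loss with ATRA was 27.7% and still ranked first. The gains with Corin and with the combination were then 30.3% and 34.9%, again the highest of the autosomes. Regions called in all 4 lists were correspondingly few, at 1908 or 25.4%, the lowest share of the 22 autosomes, against 41.1% over all regions.

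**Figure D1:**
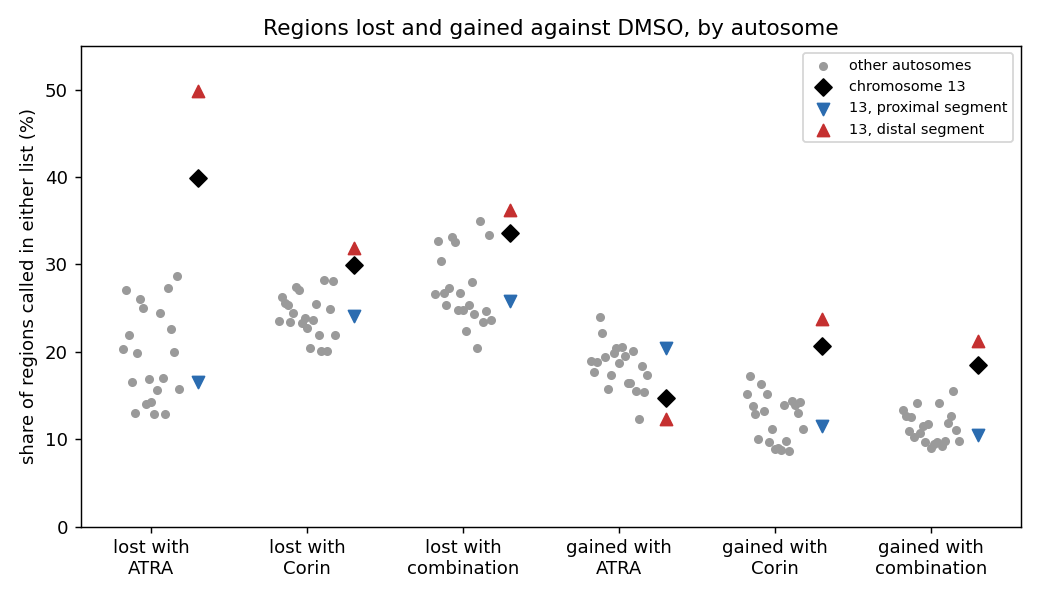
Share of regions lost (left) and gained (right) against DMSO, over the regions called in either list of the pair, in percent. Grey points are the 21 other autosomes, the diamond is chromosome 13 and the triangles are its proximal and distal segments. The distal segment, divided off by the loss with ATRA, stands at 49.8% for that loss, above every other whole autosome. The proximal segment at 16.6% lies among them. Parts of other autosomes are not drawn.

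The movements were not spread evenly along the chromosome. The share lost with ATRA changed most between positions 50850698 and 50856358, about 50.9 Mb from the start of the reference sequence. Dividing the chromosome there, which was decided after the data were seen and uses the loss with ATRA, gives a proximal segment on the centromere side with 1895 regions in 34.7 Mb of known sequence. The distal segment holds 5618 regions in 63.3 Mb. In the proximal segment 16.6% of 1700 regions were lost with ATRA, and in the distal segment 49.8% of 3973. Among the best single divisions of the 22 autosomes, this one gave the largest gain in likelihood, and chromosome 4 came next with 30.5% before its division and 9.64% after it. Shares of this size were also found in small parts of other autosomes. Before their best divisions 53.5% of 142 regions were lost on chromosome 8 and 48.2% of 305 on chromosome 7. Other measures, each divided at its own best place, changed close to the same position. All of them use the DMSO list, as the loss with ATRA does, so they are not independent of it. The gain with ATRA changed at 50.7 Mb, the gain with Corin at 51.8 Mb, the gain with the combination at 52.7 Mb and the share of the weakest 20% of DMSO regions at 48.99 Mb. The losses with Corin and with the combination changed further proximal, at 47.8 and 46.5 Mb.

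The proximal segment resembled the other autosomes in all 3 treatments. Its gains were 20.5% with ATRA, 11.5% with Corin and 10.5% with the combination, where the other 21 autosomes together had 18.5%, 13.1% and 11.7%. Its losses with Corin and with the combination were 24.1% and 25.8%, where the others had 24.3% and 27.6%. The distal segment gained 12.3%, 23.8% and 21.2% and lost 49.8%, 31.9% and 36.3% in the same order of treatments. With only peaks of a −log10 q of at least 5, its gains with Corin and with the combination were 15.3% and 16.9%. The proximal segment then had 9.12% and 10.1%, and the other autosomes had 8.50% and 9.84%. The loss with ATRA was then 36.9% in the distal segment. With lists of equal length the distal gains with Corin and with the combination were 37.7% and 43.2%. The distal losses were 15.45% and 15.35%, below the 17.5% and 17.4% of the proximal segment and the 16.4% and 17.2% of the other autosomes. The loss with ATRA remained higher in the distal segment there, at 35.4% against 15.8%. The shared regions show the same contrast. Of the proximal regions 43.4% were called in all 4 lists, of the distal regions 19.3%, and of the others 41.8%.

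In windows of 5 Mb the loss with ATRA ran from 11.0% in the window from 25 to 30 Mb to 69.2% in that from 100 to 105 Mb. No window of the other autosomes reached that value among 531 with at least 20 regions. Of the 20 windows on chromosome 13, 11 lay above 39.3%, the 95th percentile of the others. For the gains with Corin and with the combination 9 windows each lay above that percentile. In the window of the highest loss, 408 regions were called in DMSO, 134 with ATRA, 365 with Corin and 315 with the combination. The lowest shares of regions gained with ATRA were those of the window from 100 to 105 Mb with 6.21%, that from 90 to 95 Mb with 9.73% and that from 55 to 60 Mb with 10.0%, all distal. The highest shares, at 28.2%, 22.1% and 21.2%, belonged to the proximal windows from 35 to 40, 40 to 45 and 25 to 30 Mb.

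**Figure D2:**
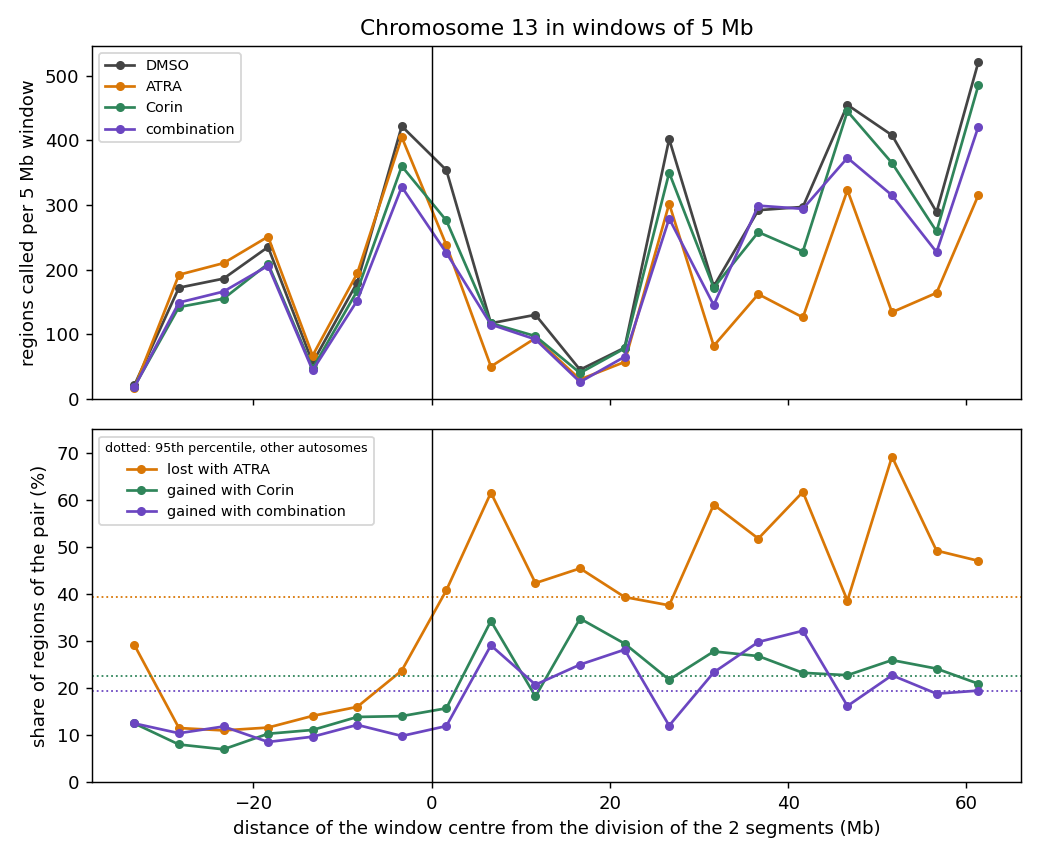
Regions called per 5 Mb window in each list (top) and share of regions lost with ATRA or gained with Corin or the combination in percent (bottom), against the distance of the window centre from the division of the segments in Mb. Dotted lines are the 95th percentiles of the windows of other autosomes. Right of the division the ATRA curve lies below those of DMSO and Corin, down to 134 regions where DMSO had 408. It lies above that of the combination in some windows, such as that from 75 to 80 Mb with 302 against 279. The first and last windows are partly filled.

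The distal segment stood out by its weak regions, which were dense in every list and least so with ATRA. Strength is the rank of a region within its own list by the authors' −log10 p, and the weakest and strongest 20% are those of the whole list. Weakest regions stood at 26.8 per Mb in the distal segment in DMSO, where the proximal segment had 6.11 and the other autosomes 7.56. With Corin the distal density was 25.1 per Mb against 4.32 proximal, and with the combination 27.3 against 5.13. With ATRA it was 10.5 against 8.62. The ratio of distal to proximal density was thus 4.38 in DMSO, 5.82 with Corin, 5.31 with the combination and 1.22 with ATRA. For the middle 60% it was 0.93, 0.91, 0.64 and 0.64 in the same order. A given rank does not stand for the same −log10 p in each list. On the other autosomes the lower quartile of −log10 p was 12.8 in DMSO, 11.6 with Corin, 18.6 with the combination and 23.8 with ATRA.

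Strong regions were sparser in the distal segment in every list, with 5.54 per Mb in DMSO, 5.50 with ATRA, 4.63 with Corin and 4.20 with the combination. In the proximal segment the same densities were 8.42, 7.87, 7.78 and 6.83. None of the strong regions of chromosome 13 was gained or lost. That holds for 0 of 621 strong ATRA regions (0.0706% gained over all chromosomes), 0 of 563 with Corin (0.0247%) and 0 of 503 with the combination (0.0264%). It also holds for 0 of 643 strong DMSO regions, of which 0.0258%, 0.0129% and 0.086% were lost over all chromosomes with ATRA, Corin and the combination. By windows of 5 Mb, the weakest DMSO regions reached 248 in 1 window of chromosome 13, while no other autosome exceeded 177. With Corin the highest counts were 226 on chromosome 13 and 205 elsewhere, and with the combination 260 and 206. With ATRA chromosome 13 reached 117 and chromosome 6 reached 129.

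**Figure D3:**
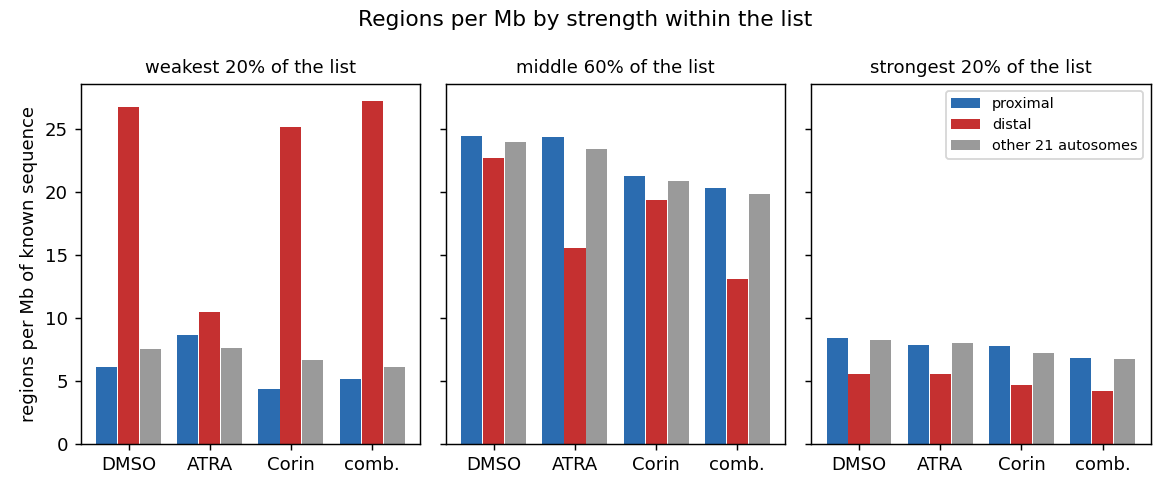
Regions per Mb of known sequence in each list for the weakest 20%, the middle 60% and the strongest 20% of the list, in the proximal and distal segments of chromosome 13 and the other 21 autosomes. The distal bar of the weakest class stands at 26.8 in DMSO and 10.5 with ATRA, and that of the strongest class at 5.54 and 5.50.

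A distal region missing only with ATRA shows what some of these weak calls look like. Regions called in DMSO, Corin and the combination but not with ATRA numbered 436, or 7.76% of the distal regions. The one of median strength in DMSO is intergenic. The −log10 p was 8.62 in DMSO, 7.45 with Corin and 9.08 with the combination, and the fold over the local background was 2.61, 2.32 and 2.38. The pileup at its summit, solved from p and fold, was 45 in DMSO. The median −log10 p of all distal DMSO regions was 9.63, against 46.6 in the proximal segment and 44.9 on the other autosomes. With ATRA the distal median was 43.2, against 69.3 and 75.5.

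Since weak regions are lost and gained more often everywhere, observed counts were set against those expected from the other 21 autosomes within 10 classes of strength and 3 classes of GC content. The excess of gains with Corin was not seen after this matching, but was seen when the lists also had equal length. The observed 1260 gained regions stood against 1306 expected, a ratio of 0.96 (0.92 to 1.01), rank 13 of the 22 autosomes. With lists of equal length 1326 stood against 1220 expected, a ratio of 1.09 (1.04 to 1.13). The combination gave 0.92 (0.88 to 0.97), or 1.07 (1.03 to 1.11) with lists of equal length. Losses with Corin and with the combination were fewer than expected, at 0.88 (0.85 to 0.91) and 0.87 (0.85 to 0.90). With only peaks of a −log10 q of at least 5, the interval for the combination reached past 1, at 0.97 (0.93 to 1.01). Loss with ATRA remained above expectation, with 2260 regions against 1898 and a ratio of 1.19 (1.16 to 1.23), the highest of the 22 autosomes. The others ran from 0.79 on chromosome 17 to 1.14 on chromosome 18. Gain with ATRA was the lowest of all, at 0.84 (0.79 to 0.89), but with lists of equal length the interval included 1, at 0.93 (0.86 to 1.01).

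Both ATRA ratios lay away from 1 in the distal segment and near 1 in the proximal one. The division was placed by the loss with ATRA itself, so the contrast in loss is partly built in and is a description. There the loss ratio was 1.22 (1.184 to 1.255) and the gain ratio 0.78 (0.72 to 0.84), while the proximal segment had 1.02 (0.92 to 1.13) and 0.95 (0.87 to 1.04). The excess lay in the weak classes. In the third strength class of the DMSO list 70.3% of distal regions were lost with ATRA (66.2 to 74.1), against 37.5% of proximal ones (29.6 to 46.1) and 46.3% of those elsewhere. In the fifth class the 3 values were 14.1%, 13.2% and 13.8%. For the gain with Corin the weakest class gave 67.0% distal and 68.4% elsewhere. Among the stronger 50% of the DMSO list, 14 of 842 distal regions were lost with ATRA, or 1.66%, against 1.53% elsewhere.

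**Figure D4:**
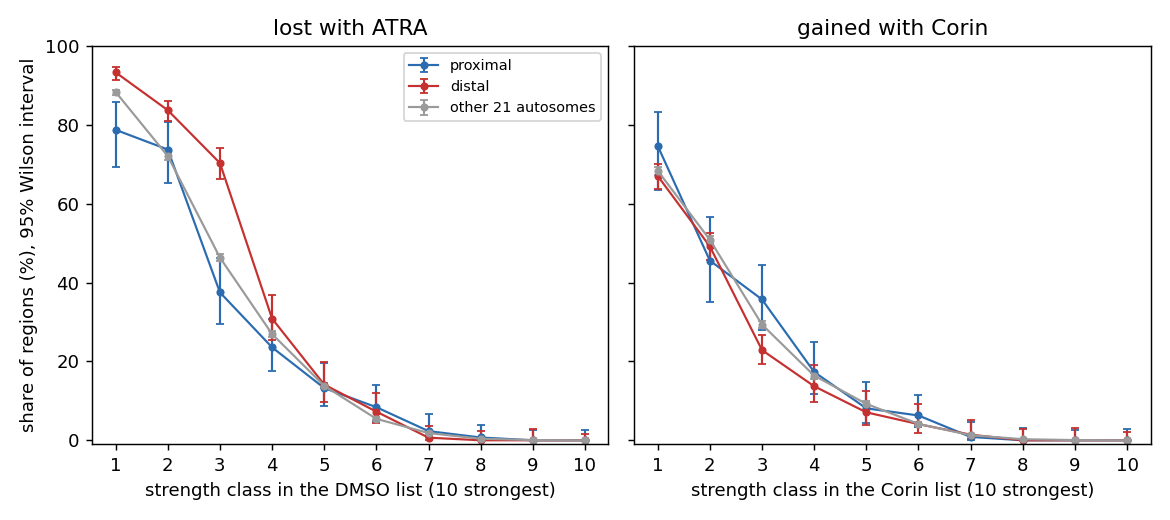
Share of regions lost with ATRA by strength class in the DMSO list (left) and gained with Corin by strength class in the Corin list (right), in percent with 95% Wilson intervals. For ATRA the distal curve lies above the others in the weak classes, with 70.3% in class 3 against 46.3% elsewhere, and the curves meet from class 5 on.

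**Figure D5:**
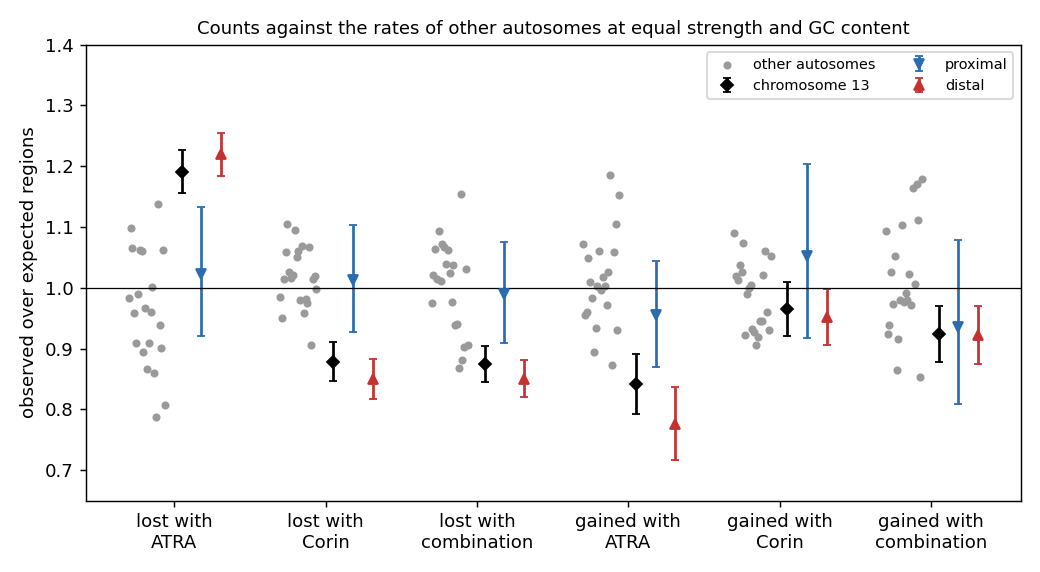
Observed over expected number of lost and gained regions at equal strength and GC content. Grey points are the other autosomes, and the symbols with 95% intervals are chromosome 13 and its segments. Loss with ATRA stands at 1.22 in the distal segment and 1.02 in the proximal one, and gain with Corin at 0.95 and 1.05.

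The distal regions lost with ATRA were called with the combination, which contains ATRA, more often than other lost regions. Of 1978 such regions 670 were called there, or 33.9% (31.8 to 36.0). In the proximal segment 41 of 282 were, or 14.5% (10.9 to 19.1), and on the other autosomes 18.3%. With Corin alone 828 distal regions lost with ATRA were called, 41.9%, against 39.0% proximal and 37.0% elsewhere. Set directly against ATRA, the combination had 1580 additional regions on chromosome 13 of 4993, or 31.6%, where all chromosomes had 11.5%. No other autosome exceeded 16.4%. The distal share was 42.5% and the proximal one 7.08%. Regions of ATRA absent from the combination made up 21.1% of the pair, against 25.4% over all. Against Corin the combination had 1306 additional regions, 23.4% against 16.1% over all, and lacked 1635, 29.3% against 21.1%.

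The patterns over the 4 lists show which calls were common in the distal segment. Regions called in DMSO, Corin and the combination made up 7.76% of the distal regions, 1.69% of the proximal ones and 2.29% elsewhere. Regions of DMSO and the combination alone made up 4.17%, 0.47% and 0.90%. Regions called in the combination only made up 11.0%, 2.43% and 3.75%, and those in Corin only 15.0%, 6.75% and 7.88%. Regions called with ATRA only were scarcer in the distal segment, with 5.86% against 13.2% and 11.5%.

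The lists differed in their background, and its part in these differences was not tested. Background and pileup were solved from the authors' p and fold for each peak. The most frequent background of a list, a measure that grows with sequencing depth, was 12.8 in DMSO, 9.12 with ATRA, 13.1 with Corin and 13.9 with the combination. ATRA was thus the list with the lowest level, and also the one with few weak calls on the distal segment. On chromosome 13 the background under peaks was low in every list. Of its peaks 56.0% in DMSO lay more than 25% above the most frequent level, 59.6% with ATRA, 55.2% with Corin and 53.0% with the combination, which ranked last among the autosomes in all lists but ATRA, where it ranked 20. The distal segment lay below the proximal one, with 53.9% and 61.0% in DMSO, 57.4% and 62.5% with ATRA, 53.4% and 60.3% with Corin, and 50.3% and 59.9% with the combination.

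Background and pileup were also compared between the segments in regions less affected by their neighbours or by weak calls. Among regions more than 10 kb from any other, a background over 1% above the most frequent one was found at 19.5% of distal and 33.8% of proximal ones in DMSO. With ATRA the values were 13.3% and 32.4%. At promoters called in all 4 lists, the pileup over the most frequent background was 51.8 in the distal and 49.2 in the proximal segment in DMSO, and 42.0 elsewhere. The same levels were 67.0, 77.9 and 64.3 with ATRA, 44.4, 49.8 and 40.8 with Corin, and 52.9, 53.2 and 48.1 with the combination. Distal promoters thus lay above proximal ones in DMSO, below them with ATRA and Corin, and nearly level with the combination. Over all regions called in all 4 lists the distal median was the lower in every list. The distal and proximal medians were 16.5 and 16.7 in DMSO and 24.5 and 26.8 with ATRA. They were 13.3 and 15.0 with Corin, and 13.1 and 16.7 with the combination. No spread was computed for these medians. The lists hold no reads outside peaks, so the number of copies of either segment was not tested, and copy number, background and regulation cannot be told apart as sources of the weak calls.

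Distal regions also lay elsewhere in relation to genes. A transcription start was within 1 kb of 8.74% of them, of 15.4% of proximal regions and of 21.2% elsewhere. More than 100 kb from any start lay 10.9%, 1.48% and 1.79%. The distal loss with ATRA was present both at starts and away from them. Within 1 kb of a start 39.0% of 400 distal regions were lost, against 8.39% of proximal ones and 14.9% elsewhere. Away from starts the values were 51.0%, 18.2% and 21.5%. The share lost also rose with GC content, in the segments and elsewhere. In the lowest of 3 GC classes 29.2% of distal regions were lost with ATRA and 8.60% elsewhere, and in the highest 66.9% and 32.5%.

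Motif content also differed between the segments over all regions, and for AP-1 and PU.1 less so among those called in all 4 lists. Both strands of a 200 bp window at each region's highest summit were searched. AP-1 (TGANTCA) was found in 9.68% of all distal regions, in 14.2% of proximal ones and in 12.4% elsewhere. Among regions gained with Corin it was found in 28.0% of proximal regions (21.9 to 35.1) and 20.9% elsewhere, but in 9.12% of distal ones (7.55 to 11.0). Among regions lost with ATRA it was found in 19.1% of proximal, 14.1% of other and 8.80% of distal regions. In regions called in all 4 lists AP-1 was found in 16.1% of proximal, 13.8% of other and 14.7% of distal ones. Strength was not matched in these comparisons. Of the regions gained with Corin, 50.9% of proximal, 65.7% of other and 85.5% of distal ones were in the weakest 20% of the list.

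PU.1 (GAGGAAGT) was found in 12.4% of the proximal regions gained with ATRA, in 12.4% of the distal ones (9.81 to 15.7) and in 12.2% elsewhere. The share over all regions was 6.75%, 3.99% and 6.70% in the same order, and in regions called in all 4 lists 6.69%, 7.83% and 7.40%. Among regions gained with the combination, PU.1 was found in 8.23% of proximal ones (4.87 to 13.6), 2.34% of distal ones (1.55 to 3.52) and 8.02% elsewhere. Among regions lost with ATRA the PU.1 share was 1.42%, 1.52% and 1.98%. The CTCF motif, that of the factor that anchors chromatin loops, was present in 1.26% of all distal regions, 2.74% of proximal ones and 3.14% elsewhere, but in 4.51%, 3.89% and 5.30% of those called in all 4 lists. RUNX (TGTGGT) stood at 19.2%, 23.4% and 20.7% over all regions. The direct repeat bound by retinoic acid receptors matched in 2 of 7513 regions, both distal and gained with ATRA and with the combination, and in 0.094% of regions elsewhere. The motif of GFI1, a repressor that recruits CoREST, matched in 7, and in 0.11% of regions elsewhere. A match is a description of the letters and no evidence of binding.

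The strongest region gained with ATRA lay in an intron of CPB2, a carboxypeptidase gene, where −log10 p was 207 and the fold over background 20.9. It was called in no other list. Next came chr13:110449255-110449642 in an intron of the collagen gene COL4A2, with a −log10 p of 205 with ATRA alone. The third was chr13:48682255-48683004 in an intron of CYSLTR2, with 189 with ATRA and 78.3 with the combination. These regions ranked at 72.2%, 72.0% and 70.3% of the ATRA list, below the strong class.

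The strongest region lost with ATRA was chr13:44242900-44243742 in an exon of LINC02938. Its −log10 p was 147 in DMSO and 97.5 with Corin, and it was called neither with ATRA nor with the combination. The second, chr13:49907568-49908278, is intergenic and lies 452 bp from the Y RNA pseudogene RNY4P9. It had 122 in DMSO, 174 with Corin and 31.8 with the combination. The third, chr13:34156981-34157396, is intergenic and had 89.6 in DMSO, 324 with Corin and 17.3 with the combination. Within its own list it thus stood at the 64.2nd percentile in DMSO, the 83.7th with Corin and the 24.95th with the combination. All of the 3 were proximal, although 1978 of the 2260 lost regions were distal.

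Regions gained with Corin at the top of the ranking lay beside stronger shared regions. The first, chr13:99307841-99308083 in an exon of UBAC2 and 442 bp from the start of GPR183, a receptor gene of immune cells, had a −log10 p of 95.2 with Corin, at a fold of 2.80. A region called in all 4 lists lay 247 bp away, and the local background there was 14.9 times the most frequent one. The second, chr13:114064131-114064463 in an intron of RASA3, had 94.5 and 2.78, and a shared region 621 bp away. The third, chr13:30373841-30374112 in an exon of LINC00426, had 87.9 with Corin, 45.5 with ATRA and 125 with the combination. The part of these neighbours in the calls was not tested.

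Of the regions lost with Corin the first was chr13:106541816-106542259, in an exon of ARGLU1, a splicing factor gene. Its −log10 p was 97.4 in DMSO, 337 with ATRA and 61.1 with the combination. The second lay in introns of OBI1-AS1 and LINC00446, with 89.6, 167 and 21.2. The third was chr13:113274960-113275826, intergenic and 21413 bp from LAMP1, a lysosome membrane gene, with 83.7, 25.98 and 7.59. None of these regions was missing with the combination.

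The combination gained chr13:80338909-80339400 in an exon of SPRY2, an inhibitor of growth factor signalling. Its −log10 p was 159 with the combination and 151 with ATRA, and the promoter region called in all 4 lists began 473 bp away. It also gained chr13:99976751-99978024, in an intron of an unnamed gene and 3760 bp from the start of the developmental factor ZIC2, with 156 and with 185 under ATRA. The third, chr13:41700734-41701243 in an intron of VWA8, had 155 with the combination, 60.8 with Corin and 50.8 with ATRA. Besides the LINC02938 region the combination lacked chr13:75357982-75358327 in an intron of TBC1D4, a regulator of glucose transport, with 141 in DMSO, 63.8 with ATRA and 41.0 with Corin. It further lacked chr13:46854773-46855649 in an intron of the serotonin receptor gene HTR2A, with 138 in DMSO, 138 with ATRA and 30.8 with Corin.

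The regions called in all 4 lists with the highest ranks were promoters. They lay at the starts of CAB39L, CARS2, ATP7B, SUGT1 and DNAJC3, of which all but CAB39L are distal. The CAB39L region, chr13:49443447-49445395, had a −log10 p of 3011 in DMSO, 3215 with ATRA, 2616 with Corin and 3643 with the combination. That of DNAJC3, a chaperone cofactor gene, had 2923, 2618, 2479 and 3460. Such regions of the distal segment stood at the top of every list.

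Most blood genes of chromosome 13 had a promoter region under all treatments. Of 28 listed genes 24 had a region within 1 kb of a start in all 4 lists, 2 (TNFSF11 and EPSTI1) had none, LPAR6 had one with ATRA only and KLF12 in DMSO and the combination. All 20 listed broadly expressed genes, such as HMGB1, TPT1 and MYCBP2, had one in all 4 lists. Within 10 kb of the blood genes, counting a region near several of them once, 62 of 362 regions were gained with ATRA and 95 lost, or 17.1% and 26.2%, against 18.5% and 20.7% over all regions. With Corin 53 of 353 were gained and 79 lost, 15.0% and 22.4% against 13.4% and 24.6%. With the combination 47 of 347 were gained and 87 lost, 13.5% and 25.1% against 12% and 27.9%. The gained shares and the losses with Corin and with the combination thus lay near those of all regions. The genes named next were chosen after their counts were seen. These counts are given without the number of regions near each gene. They therefore cannot be set against the shares over all regions and show no response particular to a gene. RB1 had the most regions gained with ATRA among the proximal blood genes, with 15 gained and 13 lost with ATRA and 3 and 10 with Corin. ELF1, an ETS factor gene, gained 8 regions with Corin and lost none. CYSLTR2 lost 5 regions with Corin and gained none. DOCK9, a distal gene for an activator of the GTPase CDC42, gained 6 and lost 21 with ATRA.

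Of the 3 gene lists, that of other tissues had the highest share of nearby distal regions lost with ATRA. Of 28 such genes, chosen for their roles in nerve, gut, skin or ear, 9 had a promoter region in all 4 lists, 7 in none and 12 in some, and those 12 were all distal. Near the 21 distal genes of this list 179 regions were called in DMSO, 56 with ATRA, 152 with Corin and 139 with the combination, each counted once. With ATRA 143 of 199 were lost, or 71.9%, and 20 gained, or 10.1%, where the whole distal segment had 49.8% and 12.3% and all regions 20.7% and 18.5%. The next 3 genes were also chosen after their counts were seen, and they held most of the 179 DMSO regions. The share lost thus rests largely on these 3 genes, and the strength of the regions was not matched here. FGF14, a neuronal sodium channel partner, had 50 regions in DMSO, 3 with ATRA, 38 with Corin and 34 with the combination, and lost 47 with ATRA while gaining none. GPC5, a cell surface proteoglycan gene, had 55, 13, 49 and 43 regions, and 6 of the 99 regions near it in any list also lie within 10 kb of MIR17HG. NALCN, a sodium leak channel, had 25, 5, 18 and 20. The promoter of FGF14 had a weak region with a −log10 p of 10.0 in DMSO, 4.90 with Corin and 14.0 with the combination, and none with ATRA.

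Near the 12 distal blood genes the regions numbered 145 in DMSO, 106 with ATRA, 138 with Corin and 123 with the combination, and 36.5% of 167 were lost with ATRA. Near the 8 distal broadly expressed genes they numbered 131, 98, 112 and 87, and 38.0% of 158 were lost with ATRA. Both shares lay below the 49.8% of the distal segment. Near the 16 proximal blood genes ATRA had 161 regions and DMSO 155.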

How the data were processed

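ATAC-seq was done on 8 U-937 samples in 4 groups of 2. The files used are 4 peak lists deposited by the authors, 1 per group, in hg38 coordinates. The list named as the control was taken as DMSO. Per the submitters' processing notes cutadapt, Bowtie2, SAMtools, Picard and MACS2 were used. Their versions and settings are not given in the sources used here. The lists are labelled naive overlap, and how the 2 samples became 1 list is not described further. Each deposited peak carries the authors' fold over the local background (a ratio) and the authors' −log10 p and −log10 q. Read depth is unknown.

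Peaks overlapping by 1 bp were merged on 24 chromosomes. Pileup and background were solved from p and fold. Expected counts came from 10 classes of strength and 3 of GC content. These steps were tested on simulated data. Shares have 95% Wilson intervals. Annotation was GENCODE 44, read with python 3.11.15, numpy 2.4.6, pandas 2.3.3, scipy 1.17.1, pysam 0.24.0 and matplotlib 3.10.9.

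The members and lists were chosen with earlier results of these data known. Named are the 3 strongest regions gained and lost per treatment, the 5 regions of highest rank in all 4 lists, the 3 windows highest and the 3 lowest in gain with ATRA, and genes of the lists. The sequences of 3 regions are not reported here.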

Additional observations from a re-analysis of the deposited data

How the results depend on the processing

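No paired analysis was possible because each group had a single list, and for the same reason no replicate could be left out. With lists cut to equal length, chromosome 13 had 480 regions gained and 979 lost with ATRA, 705 lost with Corin and 749 lost with the combination. With peaks of a −log10 q of at least 5, it had 1227 lost with ATRA, 551 gained with Corin, and 620 gained and 1312 lost with the combination. Observed over expected loss with ATRA was 1.13 without GC classes, 1.27 at the stricter q, 1.28 at equal length and 1.23 with rates from the 3 autosomes nearest in GC content. At equal length gain with ATRA was 0.93, gain with Corin 1.09 and gain with the combination 1.07, against 0.92 with the full lists. At the stricter q gain with Corin was 1.01, loss with Corin 0.93, gain with the combination 0.98 and its loss 0.97. The cause was not tested. The share of peaks with raised background was 78.6%, 73.9%, 76.4% and 72.0% for DMSO, ATRA, Corin and combination in regions called in all 4 lists. With a limit of 1.5 times it was 43.8%, 52.3%, 43.1% and 39.7%. Of the alternative values 55 stayed within 1.5 times the count given or within the interval of the share or ratio given, which includes 1326 and 1638 regions gained with Corin and with the combination at equal length, and 26 went beyond it. The remaining 1, gain with the combination at equal length, crossed from below to above 1. Gain with Corin, counted among the 26, also crossed 1 at equal length and at the stricter q, from a ratio whose interval includes 1. The loss with ATRA and the gains with Corin and with the combination ranked first of 22 autosomes under all list settings tried, while the losses with Corin and with the combination ranked 15 at equal length. Placing the division by the weakest DMSO regions or by the gain with Corin, alternatives chosen after the data were seen, gave 48.5% lost with ATRA and 24.1% gained with Corin beyond it. Depth and reads outside peaks are unknown, so weak calls cannot be judged by their counts.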
